A study of Mus musculus with 14 samples.

Results

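The genes described here encode the general splicing machinery and its most abundant partners on nascent RNA. They are the 52 genes, of 15119 in the deposited table, whose mouse symbols begin with Hnrnp, with Srsf and a digit, with Sf3a or Sf3b and a digit, or with Snrp. By symbol they comprise 20 heterogeneous nuclear ribonucleoprotein (hnRNP) genes, 11 SR protein genes, 9 genes of the SF3A and SF3B complexes and 12 genes of the Snrp series. Of the 57 matching symbols in the mouse annotation, Snrpf and 4 pseudogenes (Hnrnpa1l2-ps, Hnrnpa1l2-ps2, Snrp1c-ps1 and Snrp1c-ps2) were not analysed here. Snrpert, which the annotation lists as a processed pseudogene, was kept because its symbol fits. All 52 genes passed the filter on low values.

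Introns are removed by the spliceosome, which assembles from small nuclear RNAs and proteins on each intron. The Snrp genes encode mainly the Sm ring that encircles these RNAs and the proteins of the U1 and U2 particles, and SF3A and SF3B belong to the U2 particle that recognises the branch point. SR proteins bind exons and mostly promote their inclusion, whereas hnRNP proteins coat introns and exons and often oppose it, and the balance between them is known to shift as neural precursors become neurons.

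RNA was sequenced from GFP-positive cells of the mouse dentate gyrus, the part of the hippocampus that keeps neural precursors in the adult. The mice carried the transgene of B6.Cg-Tg(Nes-EGFP)1Yamm, in which regulatory elements of the Nestin gene drive the green fluorescent protein, and they received no treatment. The sort used GFP and dihydroethidium, which becomes fluorescent when oxidised, and defined 3 classes of reactive oxygen species (ROS): ROS+ with 5 libraries, ROS++ with 5 and ROS+++ with 4. The question, as the title of the series states it, is how precursors sorted by ROS content differ in expression. The labels name no animal, age, sex or batch and no pairing, so the p-values reflect no more than the spread between libraries, which may be technical.

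The promoters of 3 of these genes are shown as examples, chosen after the values were seen. Srsf12 had the largest change of the set, Hnrnpa1 fell at each step through the classes, and Srsf5 was higher in ROS+++ than in ROS+ under every scaling tried. Each runs 5′ to 3′ on the strand of the gene, from 250 bases before to 50 bases after the start of transcription, in RefSeq on build GRCm38.p6. The windows are chr15:103240147-103240446 on the plus strand for Hnrnpa1, chr4:33209022-33209321 on the plus strand for Srsf12 and chr12:80945249-80945548 on the plus strand for Srsf5. Capitals mark CCAAT or its other-strand form ATTGG.
Hnrnpa1: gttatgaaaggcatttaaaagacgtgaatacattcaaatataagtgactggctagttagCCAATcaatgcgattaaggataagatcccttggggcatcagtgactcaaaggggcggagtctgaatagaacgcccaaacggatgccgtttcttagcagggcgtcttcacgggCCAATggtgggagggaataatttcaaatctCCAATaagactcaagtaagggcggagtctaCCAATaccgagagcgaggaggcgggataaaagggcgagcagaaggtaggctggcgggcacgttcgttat
Srsf12: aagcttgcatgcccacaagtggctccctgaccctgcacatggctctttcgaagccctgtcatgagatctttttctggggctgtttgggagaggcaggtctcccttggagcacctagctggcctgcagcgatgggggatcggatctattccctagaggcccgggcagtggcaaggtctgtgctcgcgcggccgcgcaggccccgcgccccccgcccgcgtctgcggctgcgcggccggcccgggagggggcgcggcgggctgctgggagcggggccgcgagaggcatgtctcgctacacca
Srsf5: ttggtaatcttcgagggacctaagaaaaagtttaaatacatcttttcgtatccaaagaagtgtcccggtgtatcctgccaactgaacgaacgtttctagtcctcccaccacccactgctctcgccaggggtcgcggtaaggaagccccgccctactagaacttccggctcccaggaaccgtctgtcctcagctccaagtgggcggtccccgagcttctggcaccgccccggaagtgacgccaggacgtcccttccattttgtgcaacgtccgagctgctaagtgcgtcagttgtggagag
The Hnrnpa1 window held 4 such matches, and those of Srsf12 and Srsf5 held none. Of the 52 genes, 45 matched the RefSeq table, and 22 of them (48.9%) held CCAAT or ATTGG, against 42.8% of the 10884 listed genes with a window of that length. Of the 10 genes with a window that were lower in ROS+++ than in ROS+ under all 4 scalings described below, 5 held it and 5 did not. The cyclic AMP response element TGACGTCA, the same on both strands, was in the windows of 2 of the 45 genes (4.44%) and of 3.52% of the listed genes. CAGATG or its other-strand form CATCTG, a core of sites for proneural factors, was in 2 of the 45 (4.44%) and in 13.9% of the listed genes. None of these motifs contains another, they were picked with the values known, and a match is a description of the letters, not of a bound site.

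Reads over all listed genes numbered 20832009 to 25313902 in the ROS+ libraries, 18325361 to 23454022 in ROS++ and 12704227 to 20998589 in ROS+++. The 10 most abundant genes took 5.81 to 6.96%, 5.62 to 7.23% and 11.2 to 12.1% of these reads in the classes from ROS+ to ROS+++. Levels are given as CPM, the reads of a gene scaled to a library of 1000000 reads. The 3 reads that a count of 0 still allows correspond to 0.119 to 0.236 CPM by library, which covers counting error only. Markers of several cell types moved with the classes. The summed level of 15 mural cell markers was 202 to 724 CPM for ROS+, 8005 to 23390.0 CPM for ROS++ and 52510.0 to 60160.0 CPM for ROS+++. That of 19 markers of neuronal commitment was 13950.0 to 19800.0 CPM for ROS+, 1613 to 3264 CPM for ROS++ and 60.6 to 338 CPM for ROS+++. That of 16 microglia and macrophage markers was 31.3 to 39.8 CPM, 1013 to 2719 CPM and 883 to 3438 CPM, and that of 22 cell cycle genes was 854 to 1456 CPM, 1732 to 2690.0 CPM and 383 to 607 CPM in the same order. The 20 dissociation stress and immediate early genes summed to 689 to 1004 CPM for ROS+, 1747 to 4073 CPM for ROS++ and 11780.0 to 16460.0 CPM for ROS+++. No marker in these lists was at 0 in every library of a class, and Neurod4, a neuronal factor, had at most 3 reads in each ROS+++ library. The 12 endothelial markers summed to 136 to 348 CPM, 215 to 629 CPM and 1390.0 to 1685 CPM from ROS+ to ROS+++, and the 12 of the oligodendrocyte lineage to 3651 to 7930.0 CPM, 4542 to 11870.0 CPM and 505 to 776 CPM. The 15 markers of radial glia-like cells and astrocytes, which include Nes, summed to 1343 to 1999 CPM, 6054 to 8471 CPM and 2740.0 to 6942 CPM. Mitochondrially encoded genes took 1.33 to 1.58% of the reads for ROS+, 1.99 to 2.23% for ROS++ and 1.25 to 1.80% for ROS+++, with every ROS++ library above all others. In bulk samples like these, fewer cells of a type and less RNA per cell cannot be told apart. The part of these markers and of the mitochondrial share in the results below was not tested.

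The 52 genes together took 1.43 ± 0.0396% of all reads in ROS+ (SD, n = 5), 1.20 ± 0.0369% in ROS++ (SD, n = 5) and 0.975 ± 0.0346% in ROS+++ (SD, n = 4). The ranges, 1.38 to 1.49%, 1.14 to 1.25% and 0.938 to 1.01%, did not overlap. How many single genes were called lower depended on how the libraries were scaled to each other, as the plot of calls under 4 scalings shows. Library totals divide each count by all reads of the library. TMM (trimmed mean of M-values), relative log expression and upper-quartile factors then adjust for a shift shared by most genes or by the better expressed ones. In ROS+++ against ROS+ the median log2 change over all 15102 genes tested was -0.44 with library totals, -0.17 with upper-quartile factors, -0.10 with TMM factors and -0.04 with relative log expression factors. Between ROS++ and ROS+ it lay between -0.03 and 0.01 under all 4.

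**Figure D1:**
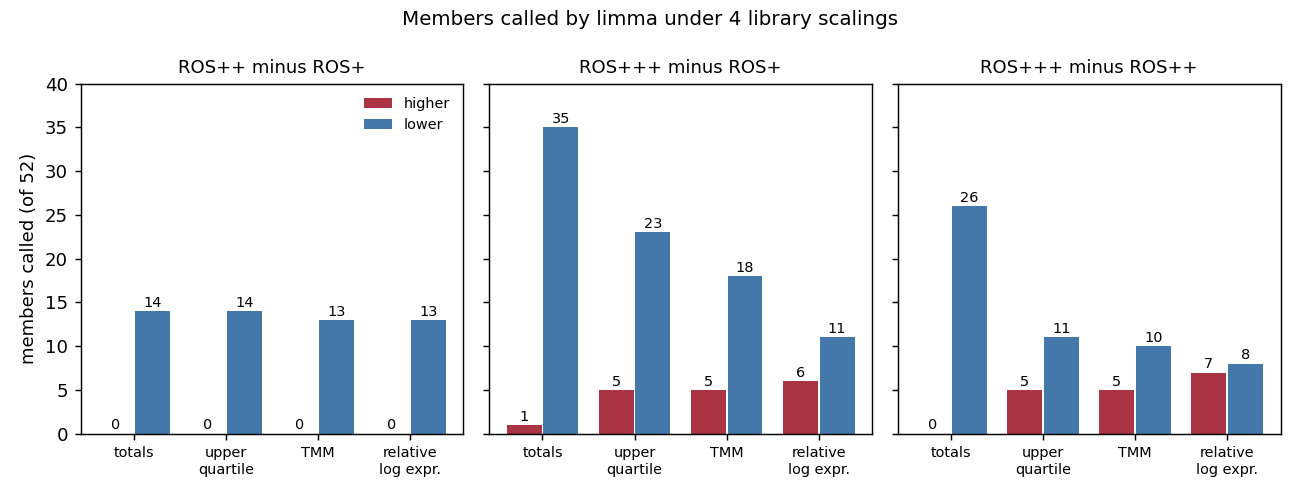
Number of the 52 genes called higher (red) or lower (blue) by limma at an adjusted p under 0.05, on the vertical axis, under 4 library scalings, for each pair of classes. The 13 or 14 lower calls in ROS++ against ROS+ hardly moved, whereas the lower calls in ROS+++ against ROS+ ran between 35 for library totals and 11 for relative log expression factors.

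ROS++ cells had lower RNA of part of the set than ROS+ cells. With library totals 14 of 52 genes (26.9%) were called lower and 0 higher, against 13.2% lower and 16.4% higher among all genes tested (limma, Benjamini-Hochberg adjusted p under 0.05). At an unadjusted p under 0.05 limma gave 2 higher and 20 lower. No share over all genes is given at that threshold, so these counts do not set the 52 genes apart from other genes. A fit by limma-voom, which weights the recovered reads, called Hnrnpab and Sf3b5 higher and 16 genes lower. Its shares over all genes were 15.9% higher and 15.2% lower. TMM factors gave 0 higher and 13 lower (17.0% and 11.7% of all genes), relative log expression factors 0 and 13 (16.5% and 12.3%), and upper-quartile factors 0 and 14 (16.5% and 12.5%). The same 13 genes were lower under all 4 scalings, against 11.7% of all genes, and 0 were higher, against 16.2%. They were Hnrnpa1, Hnrnpc, Hnrnph1, Hnrnph3, Hnrnpk, Srsf3, Srsf7, Srsf10, Srsf12, Sf3b1, Snrpa1, Snrpe and Snrpn. In 14 genes every ROS++ library lay below every ROS+ library (10.9% of all genes), and in Hnrnpab and Sf3b5 every one lay above (12.1%). The median log2 change of the 52 genes was -0.22 with library totals, against -0.03 over all genes tested.

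ROS+++ cells had lower RNA of most of the set than ROS+ cells when libraries were scaled to their totals, and of between 21.2% and 44.2% of it with the other factors. Library totals gave 35 genes lower (67.3%) and 1 higher, against 40.0% and 19.2% of all genes. Upper-quartile factors gave 23 lower and 5 higher (30.1% and 23.5% of all genes), TMM factors 18 and 5 (27.5% and 25.3%), and relative log expression factors 11 and 6 (25.9% and 26.5%). No gene of the set was called in opposite directions by different scalings of this comparison. The 11 genes that were lower under all 4 (21.2%, against 25.9% of all genes) were Hnrnpa1, Hnrnpc, Hnrnph3, Srsf10, Srsf12, Sf3a1, Snrpa1, Snrpd1, Snrpd3, Snrpe and Snrpn, and Srsf5 was higher under all 4 (19.2% of all genes). Every ROS+++ library lay below every ROS+ library in 31 genes (33.2% of all genes) and above in 1 (16.8%) with library totals. The median log2 change of the set was -0.63 with library totals, against -0.44 over all genes, and -0.19 with relative log expression factors, against -0.04.

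ROS+++ cells set against ROS++ cells showed the same dependence on scaling. Library totals gave 26 genes lower and 0 higher, against 29.2% and 9.89% of all genes. At an unadjusted p under 0.05 limma gave 0 higher and 29 lower, again without a share over all genes to set these counts against. By limma-voom 0 were called higher and 25 lower, against 10.3% and 26.6% of all genes. Upper-quartile factors gave 11 lower and 5 higher (20.1% and 14.8% of all genes), TMM factors 10 and 5 (18.8% and 16.3%), and relative log expression factors 8 and 7 (17.1% and 18.7%). Hnrnpa1, Hnrnpab, Hnrnpd, Srsf12, Sf3b6, Snrpa1, Snrpd1 and Snrpn were lower under all 4 (15.4%, against 17.1% of all genes), and 0 genes were higher under all 4 (9.89%). Every ROS+++ library lay below every ROS++ library in 21 genes (19.5% of all genes) and above in 0 (7.48%). The set's median log2 change was -0.41 with library totals, against -0.34 over all genes, and -0.03 with relative log expression factors, against 0.03. The 3 comparisons share libraries and are not independent of each other.

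Over the 3 classes at once, the limma F-test called 35 of the 52 genes different with library totals, 29 with TMM factors, 24 with relative log expression factors and 29 with upper-quartile factors. The shares over all genes tested were 61.5%, 55.7%, 56.0% and 56.4%. By mean CPM, 32 of the 52 genes ran down from ROS+ through ROS++ to ROS+++ with library totals, against 38.2% of all genes tested, including 10 of 12 Snrp genes and 11 of 20 hnRNP genes. Another 12 peaked in ROS++ and were lowest in ROS+++, against 19.5% of all genes. With relative log expression factors 18 genes ran down through the classes (26.2% of all genes), 13 peaked in ROS+ with their lowest level in ROS++ (10.7%), and 9 ran up (30.8%).

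**Figure D2:**
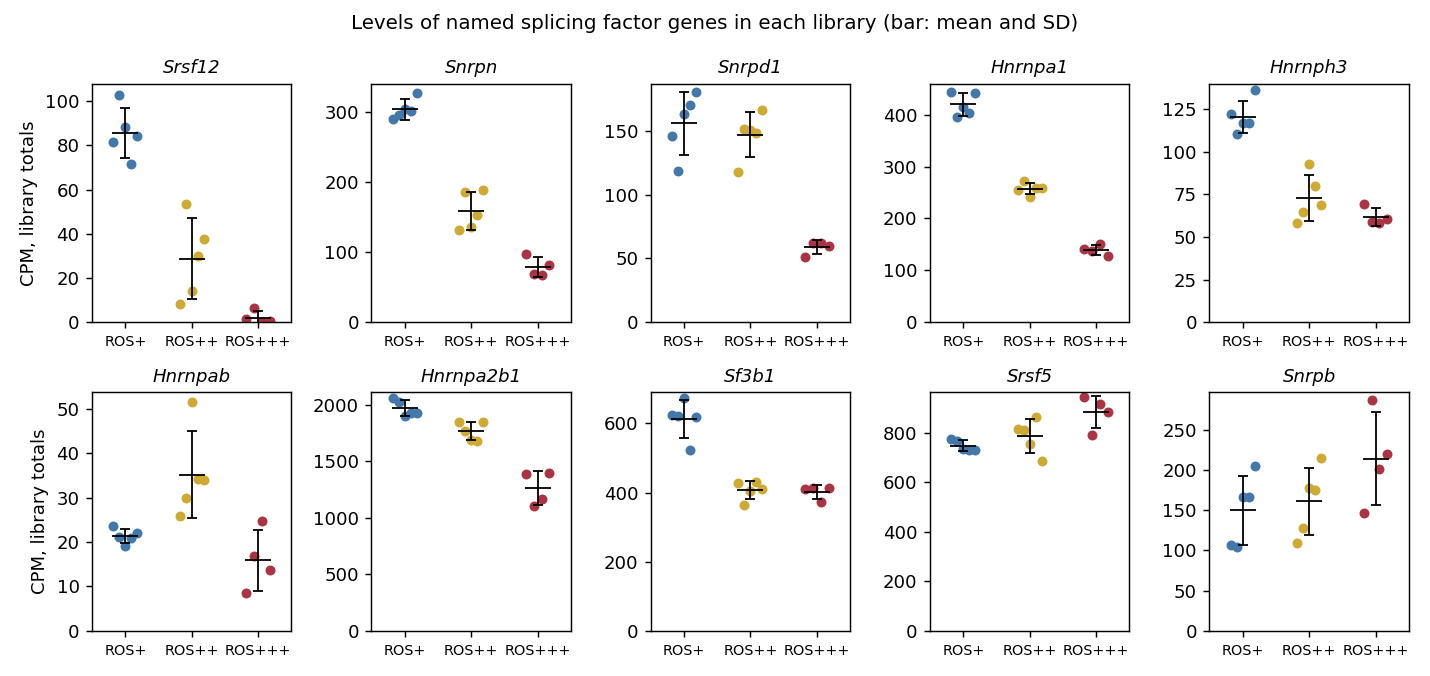
Level of 10 genes in each library, in CPM scaled to library totals on linear axes that start at 0. Points are libraries of ROS+ (n = 5), ROS++ (n = 5) and ROS+++ (n = 4), and bars give the mean and SD. Srsf12, Snrpn and Hnrnpa1 step down without overlap between classes, Hnrnpab is highest in ROS++, and the ROS+++ libraries of Srsf5 lie above all ROS+ libraries.

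Among the hnRNP genes, Hnrnpa1 gave the clearest stepwise pattern. It encodes an abundant hnRNP that represses exons and packages messenger RNA, and lies on chromosome 15, 103240432 to 103246692, plus strand (coordinates here and below from GENCODE M21 on GRCm38). Its level was 444, 396, 414, 404 and 442 CPM in the ROS+ libraries, 255, 272, 242, 259 and 258 CPM for ROS++, and 140.5, 137, 149.7 and 128 CPM in ROS+++. Each class lay wholly below the one before it. Hnrnpa1 fell by 0.71 ± 0.09 on the log2(CPM + 1) scale in ROS++ against ROS+ (SE, limma adjusted p = 5.53e-06), by 1.59 ± 0.09 in ROS+++ against ROS+ (1.35e-10) and by 0.89 ± 0.09 in ROS+++ against ROS++ (1.02e-06). With relative log expression factors these changes were -0.68, -1.15 and -0.47, all still called. The 2 processed pseudogenes of this family were not analysed here, and reads that fit several copies may have been split by the counting.

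Hnrnph3, whose product belongs to the hnRNP H family that binds runs of guanines, stood apart in ROS+. Its level was 122, 110.5, 117, 117 and 136 CPM in ROS+, 58.0, 64.5, 92.6, 79.8 and 68.8 CPM for ROS++, and 69.5, 58.9, 58.0 and 60.5 CPM in ROS+++. All ROS+ libraries lay above the rest, and the other classes overlapped. It fell by 0.74 ± 0.14 in ROS++ (adjusted p = 0.000618) and by 0.95 ± 0.15 in ROS+++ (2.84e-05), each against ROS+, and differed by -0.22 ± 0.15 between ROS+++ and ROS++ (0.26). Its exons overlap on the other strand those of Rufy2, which averaged 49.6 CPM for ROS+, 26.3 CPM for ROS++ and 17.97 CPM for ROS+++, and the libraries keep no strand.

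Hnrnpab, an hnRNP of the A/B type that also occurs in transported RNA granules, was highest in the middle class. The ROS+ libraries held 23.6, 21.2, 19.2, 20.8 and 21.9 CPM, the ROS++ libraries 25.9, 30.0, 51.5, 34.1 and 34.0 CPM, and the ROS+++ libraries 8.50, 16.7, 24.8 and 13.6 CPM. ROS++ lay above ROS+ and above ROS+++ in every library, while ROS+++ and ROS+ overlapped. The difference between ROS++ and ROS+, 0.66 ± 0.26, did not pass the test (adjusted p = 0.0674), though limma-voom called it (0.035). It fell by 1.15 ± 0.28 in ROS+++ against ROS++ (0.00315), and by 0.75 with relative log expression factors (0.0446). Between ROS+++ and ROS+ it differed by -0.49 (0.137), and by -0.72 without ROS+++ replicate 3, which was called (0.0328). The summed cell cycle genes were also highest in ROS++, and their part was not tested.

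Hnrnpa2b1 had the highest mean level of the hnRNP genes over all libraries, although Hnrnpk was above it in ROS+ and in ROS+++. It encodes the core hnRNP proteins A2 and B1, which also carry RNA into cell processes. It had 2063, 2028, 1899, 1930.5 and 1927 CPM in ROS+, 1844, 1767, 1688, 1684 and 1846 CPM for ROS++, and 1388, 1104, 1168 and 1397 CPM in ROS+++. The classes did not overlap. It fell by 0.65 ± 0.08 in ROS+++ against ROS+ with library totals (adjusted p = 1.46e-06), but the difference was -0.20 with relative log expression factors (0.0587). Between ROS++ and ROS+ it differed by -0.16 ± 0.07 (0.116).

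Of the other hnRNP genes, Hnrnpc, whose product binds runs of uridines, averaged 709.9 ± 45.0 CPM for ROS+, 550.1 ± 60.3 CPM for ROS++ and 377 ± 15.7 CPM for ROS+++, and was lower in ROS+++ than in ROS+ by 0.91 ± 0.09 (adjusted p = 1.77e-07). Hnrnpk, which binds runs of cytosines, averaged 2026 ± 36.5 CPM, 1532 ± 143 CPM and 1297 ± 34.2 CPM in the same order. It fell in ROS++ against ROS+ under all 4 scalings, and in ROS+++ against ROS+ by 0.64 ± 0.07 with library totals (5.54e-07), with -0.20 under relative log expression factors (0.0756). Hnrnpd, the RNA decay factor AUF1, averaged 86.7 ± 9.05 CPM for ROS+, 101 ± 21.7 CPM for ROS++ and 54.2 ± 3.83 CPM for ROS+++, and fell by 0.86 ± 0.16 in ROS+++ against ROS++ (0.00034). Hnrnpf and Hnrnpl, whose products bind guanine runs and CA repeats, show the other side of the scaling. With library totals they differed by 0.18 and 0.01 between ROS+++ and ROS+ (0.334 and 0.928), and with relative log expression factors they rose by 0.61 and 0.46 (0.00464 and 0.0062). Hnrnpa3 also passed only there among these 2 scalings, at 0.36 (0.0362), against -0.08 with library totals (0.643). In this comparison 11 of the 20 hnRNP genes were called lower with library totals (40.0% of all genes), and 3 lower and 3 higher with relative log expression factors (25.9% and 26.5%).

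**Figure D3:**
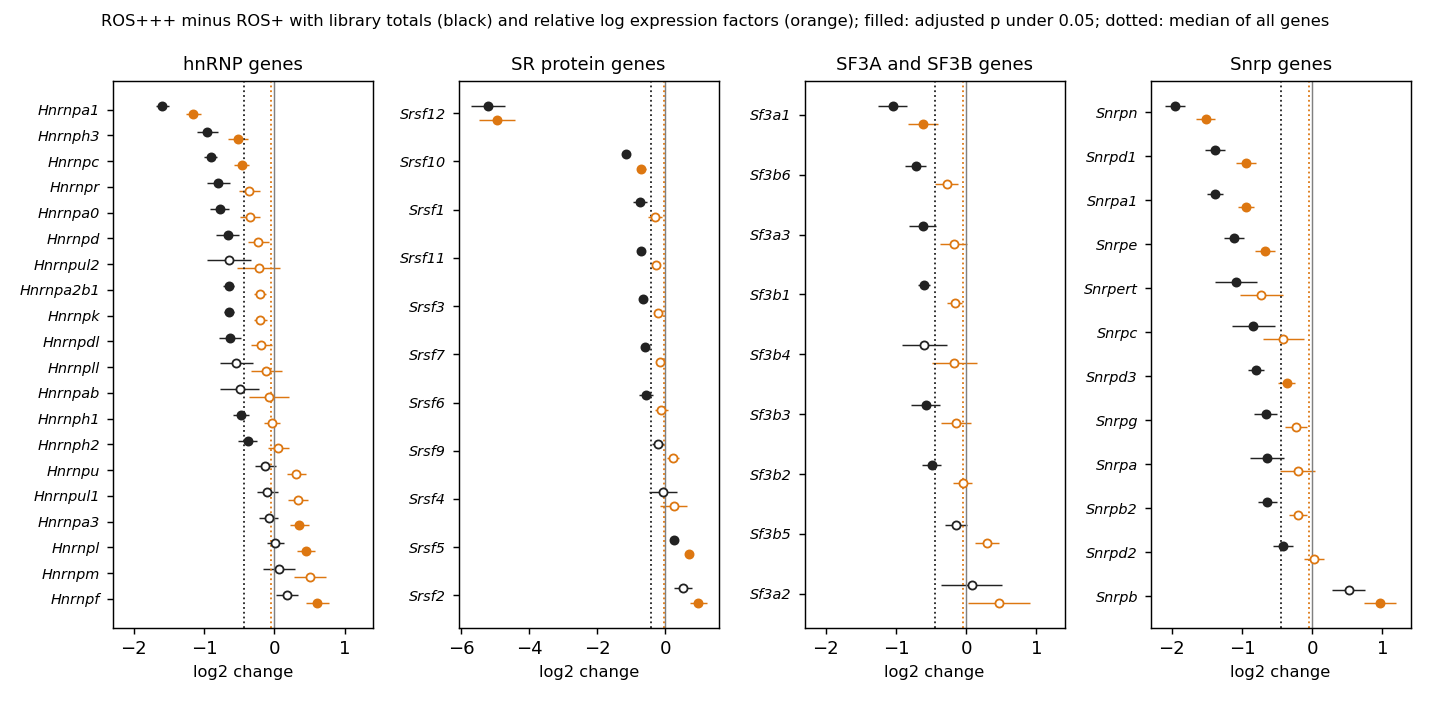
Log2 change of all 52 genes in ROS+++ minus ROS+ (horizontal axis, error bars SE), by role, with library totals (black) and relative log expression factors (orange). Filled points have a limma adjusted p under 0.05, dotted lines mark the median of all genes tested (-0.44 and -0.04), and the axis of the SR panel is wider to hold Srsf12 at -5.22.

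Srsf12 showed the largest difference of the set. Its product is an unusual SR protein that is rich in brain and testis and antagonises other SR proteins in splicing assays, and the gene lies on chromosome 4, 33208991 to 33233340, plus strand. It had 81.6, 103, 88.6, 71.8 and 84.3 CPM in ROS+, 8.38, 53.7, 14.0, 30.1 and 37.5 CPM for ROS++, and 1.19, 6.38, 0.0952 and 0.630 CPM in ROS+++. The classes did not overlap, ROS++ libraries spread most widely, and ROS+++ replicate 3 was under the level of 3 reads. Srsf12 fell by 1.80 ± 0.48 in ROS++ against ROS+ (adjusted p = 0.00847), by 5.22 ± 0.51 in ROS+++ against ROS+ (1.23e-07) and by 3.41 ± 0.51 in ROS+++ against ROS++ (4.91e-05). On the deposited log2 values, whose prior is smaller, the ROS++ difference was -1.86 and did not pass (0.0765). The neuronal commitment markers ran in the same order through the classes, and their part was not tested.

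Srsf5, the shuttling SR protein SRp40, had the highest mean level of the SR genes over all libraries, although Srsf7 was above it in ROS+, and went the other way. It had 776, 768, 736, 731 and 728 CPM in ROS+, 816, 810.4, 754, 865 and 684 CPM for ROS++, and 944, 791, 914 and 883 CPM in ROS+++. Every ROS+++ library lay above every ROS+ library, and ROS++ overlapped both. It rose by 0.24 ± 0.08 in ROS+++ against ROS+ with library totals (adjusted p = 0.02) and by 0.68 ± 0.10 with relative log expression factors (1.19e-05). With library totals the call was lost without ROS+++ replicate 1 (0.20, adjusted p = 0.0614) or without replicate 3 (0.22, 0.0546). Srsf2, known as SC35, had 226, 582, 338, 201 and 444 CPM in ROS+, 310.1, 408, 364, 297 and 398 CPM for ROS++, and 568, 419.5, 356 and 605 CPM in ROS+++. The classes overlapped widely. Its difference between ROS+++ and ROS+ was 0.52 ± 0.26 with library totals (0.0925), and it rose by 0.96 ± 0.25 with relative log expression factors (0.00367). Its exons overlap those of Mettl23 and Mfsd11 on the other strand.

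Most other SR genes were lower in ROS+++ than in ROS+ with library totals, but few with relative log expression factors. Srsf10, a splicing repressor when dephosphorylated, averaged 376 ± 13.4 CPM for ROS+, 260.5 ± 40.7 CPM for ROS++ and 169.5 ± 10.6 CPM for ROS+++, without overlap. It fell by 1.15 ± 0.11 in ROS+++ against ROS+ (adjusted p = 1.37e-07), and by 0.71 with relative log expression factors (8.24e-05). Srsf3 and Srsf7, small SR proteins that link splicing to RNA export, fell by 0.51 ± 0.08 (0.000101) and 0.41 ± 0.10 (0.0032) in ROS++ against ROS+ and were called lower there under all 4 scalings. They also fell in ROS+++ against ROS+, by 0.65 and 0.60 with library totals, while the differences of -0.21 and -0.16 with relative log expression factors did not pass (0.0717 and 0.244). Srsf1, the prototype of the family, averaged 120.1 ± 17.9 CPM for ROS+, 125 ± 26.4 CPM for ROS++ and 73.0 ± 23.0 CPM for ROS+++, and its fall of 0.75 against ROS+ with library totals (0.00524) was -0.31 with relative log expression factors (0.203). In ROS+++ against ROS+, 7 of 11 SR genes were lower and 1 higher with library totals (40.0% and 19.2% of all genes), and 2 lower and 2 higher with relative log expression factors (25.9% and 26.5%).

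Sf3b1, the largest subunit of SF3B and its branch-point clamp, had the highest mean level of the SF3 genes in each class and also stood apart in ROS+. It had 623, 623, 674, 524 and 619 CPM in ROS+, 427, 364, 404, 430.2 and 412 CPM for ROS++, and 409, 415, 373 and 412 CPM in ROS+++. All ROS+ libraries lay above all others. Sf3b1 fell by 0.58 ± 0.09 in ROS++ (adjusted p = 4.46e-05) and by 0.60 ± 0.09 in ROS+++ (1.88e-05), each against ROS+ and with library totals. Under relative log expression factors the ROS+++ difference against ROS+ was -0.16 (0.216). Between ROS+++ and ROS++ it differed by -0.02 ± 0.09 with library totals (0.896) and was higher in ROS+++ by 0.40 ± 0.11 with relative log expression factors (0.00679).

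Sf3b6, the small SF3B subunit that sits near the branch point, averaged 171 ± 26.0 CPM for ROS+, 197 ± 29.9 CPM for ROS++ and 104 ± 17.4 CPM for ROS+++. It fell by 0.92 ± 0.15 in ROS+++ against ROS++ (adjusted p = 0.000122), under all 4 scalings. Sf3a1, the scaffold of SF3A, averaged 111 ± 9.20 CPM, 79.7 ± 22.3 CPM and 54.5 ± 13.5 CPM from ROS+ to ROS+++, and fell by 1.05 ± 0.21 in ROS+++ against ROS+ (0.000303), under all 4 scalings. Of the 9 SF3 genes, 6 were lower in ROS+++ than in ROS+ with library totals (40.0% of all genes) and 1, Sf3a1, with relative log expression factors (25.9%). Sf3b5, a small SF3B subunit, averaged 90.2 ± 10.4 CPM for ROS+, 117 ± 10.9 CPM for ROS++ and 83.0 ± 22.3 CPM for ROS+++, and was higher in every ROS++ library than in any ROS+ library without passing the test (0.37 ± 0.15, adjusted p = 0.0706).

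Snrpn had the highest mean level of the Snrp genes over all libraries and in ROS+, but not in ROS++ or ROS+++, where Snrpd3 and Snrpb led. It encodes SmN, a brain-rich relative of the SmB proteins, from an imprinted locus on chromosome 7, 59982495 to 60140219, minus strand. It had 289, 295, 304, 301 and 327 CPM in ROS+, 131, 185, 136, 153 and 188 CPM for ROS++, and 96.7, 68.0, 67.4 and 81.7 CPM in ROS+++. Each class lay wholly below the one before it. Snrpn fell by 0.95 ± 0.13 in ROS++ against ROS+ (adjusted p = 2.54e-05), by 1.95 ± 0.14 in ROS+++ against ROS+ (2.16e-09) and by 1.00 ± 0.14 in ROS+++ against ROS++ (2.25e-05), and with relative log expression factors by 0.92, 1.51 and 0.59. Gm38393, which shares exons with it on the same strand, averaged 6.96 CPM for ROS+, 4.52 CPM for ROS++ and 2.03 CPM for ROS+++.

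Snrpd1 encodes SmD1, a subunit of the Sm ring in every cell, on chromosome 18, and stood apart in the top class. It had 146, 118, 164, 171 and 181 CPM in ROS+, 118, 152, 151, 149 and 166 CPM for ROS++, and 50.8, 61.8, 62.2 and 60.1 CPM in ROS+++. ROS++ and ROS+ overlapped and all ROS+++ libraries lay below both. It fell by 1.30 ± 0.14 in ROS+++ against ROS++ (adjusted p = 2.34e-06) and by 1.38 ± 0.14 against ROS+ (2.69e-07), while ROS++ differed from ROS+ by -0.08 ± 0.14 (0.713). Whether the change at the upper step differs from that at the lower step was not tested.

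Snrpb encodes the general SmB proteins of non-neuronal cells. It had 107, 104, 166, 166 and 204 CPM in ROS+, 109.8, 128, 177, 175 and 215 CPM for ROS++, and 147, 287, 201 and 219.8 CPM in ROS+++, with overlap between all classes. It differed by 0.52 ± 0.23 between ROS+++ and ROS+ with library totals (adjusted p = 0.0622) and rose by 0.96 ± 0.23 with relative log expression factors (0.00167). The other 11 Snrp genes were all called lower in ROS+++ than in ROS+ with library totals (40.0% of all genes), and 5 of them with relative log expression factors (25.9%). Those 5 were Snrpn, Snrpd1, Snrpa1 of the U2 particle, and Snrpe and Snrpd3 of the Sm ring. Snrpa1 averaged 225 ± 22.3 CPM for ROS+, 160.2 ± 12.1 CPM for ROS++ and 85.6 ± 7.13 CPM for ROS+++, and fell at each step under all 4 scalings.

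Ratios within a library do not depend on the scaling, apart from the 1 CPM added. The log2 ratio of Snrpn to Snrpb was 1.42, 1.49, 0.866, 0.855 and 0.675 in ROS+, 0.248, 0.531, -0.377, -0.198 and -0.187 in ROS++, and -0.598, -2.06, -1.56 and -1.42 in ROS+++. The classes did not overlap. The mean ratio differed by -1.06 between ROS++ and ROS+, by -2.47 between ROS+++ and ROS+ and by -1.41 between ROS+++ and ROS++. Each had p = 0.00794 by a two-sided exact permutation test over libraries, the smallest these numbers of libraries allow, and 0.00794 after Benjamini-Hochberg adjustment over 6 ratio tests.

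The ratio of Ptbp2 to Ptbp1 was followed as a known switch of neural splicing, since Ptbp1, an hnRNP of precursors and other non-neuronal cells that represses neuronal exons, gives way to its neural relative Ptbp2 during neurogenesis. Its log2 value was 3.08, 3.13, 3.21, 2.96 and 3.19 in ROS+, 1.58, 1.59, 2.22, 1.80 and 1.78 in ROS++, and 0.783, 0.448, 0.178 and 0.899 in ROS+++. Again the classes did not overlap. The differences were -1.32 for ROS++ against ROS+, -2.54 for ROS+++ against ROS+ and -1.22 for ROS+++ against ROS++, each with an exact permutation p of 0.00794 and the same value after adjustment. Ptbp2 averaged 398.9 ± 6.59 CPM for ROS+, 203 ± 26.7 CPM for ROS++ and 63.3 ± 14.8 CPM for ROS+++, and fell in ROS++ and in ROS+++ against ROS+ (limma adjusted p = 1.91e-05 and 6.12e-11). Ptbp1 averaged 45.3 ± 2.57 CPM, 58.0 ± 8.75 CPM and 43.8 ± 18.5 CPM in the same order, and passed in no comparison. Exons of Ptbp1 overlap those of Plppr3 and of a noncoding RNA on the other strand.

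**Figure D4:**
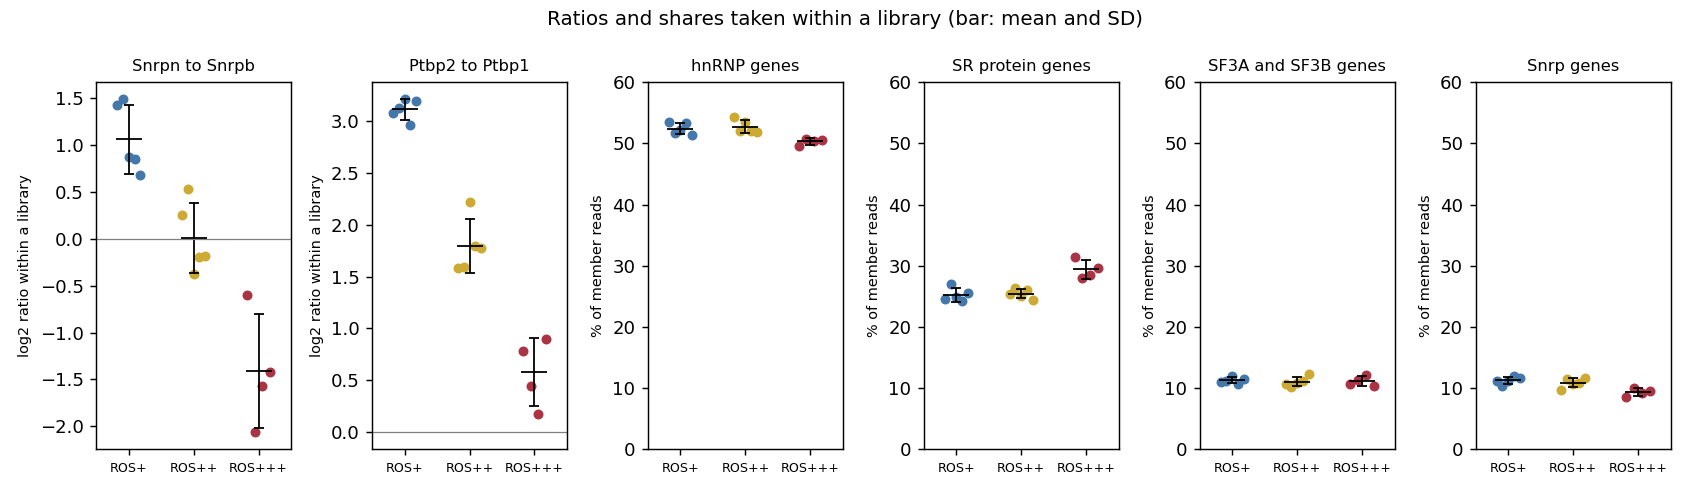
Log2 ratios of Snrpn to Snrpb and of Ptbp2 to Ptbp1 within each library, and the percent of the reads on the 52 genes that fell on each role group. Points are libraries of ROS+ (n = 5), ROS++ (n = 5) and ROS+++ (n = 4), with mean and SD. Both ratios step down through the classes without overlap, and the SR share is highest in ROS+++. Only Srsf5 and Srsf2 of the SR genes had a higher mean CPM in ROS+++ than in ROS+ with library totals.

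Shares of reads within the set do not depend on the scaling either. Unlike the ratios, their ranges overlapped between ROS+ and ROS++ in every role group. SR genes took 25.2 ± 1.11% of the set's reads in ROS+, 25.4 ± 0.773% in ROS++ and 29.4 ± 1.56% in ROS+++ (SD), and every ROS+++ library, from 28.0 to 31.5%, lay above all others, the highest of which was 27.0%. Only Srsf5 and Srsf2 of the SR genes had a higher mean level in ROS+++ than in ROS+ with library totals. Srsf5 averaged 883 against 747 CPM, and Srsf2, whose libraries overlapped widely, 487 against 358 CPM. The other SR genes had lower means in ROS+++. The set as a whole also took fewer reads there, so a lower mean need not be a lower share of the set. With libraries scaled to the set's total, as described below, Srsf5 and Srsf2 were called higher in ROS+++ than in ROS+. Srsf10 and Srsf12 were called lower, and no other SR gene passed in either direction. The higher share is thus not a trait of the whole group. Snrp genes took 11.2 ± 0.623% in ROS+, 10.8 ± 0.75% in ROS++ and 9.24 ± 0.663% in ROS+++, and hnRNP genes 52.4 ± 0.940%, 52.7 ± 1.06% and 50.3 ± 0.538%. SF3 genes took 11.2 ± 0.494%, 11.01 ± 0.781% and 11.1 ± 0.788%. No test was run on these shares. When libraries were scaled to the total of the set itself, a scaling added after the data were seen, 9 genes were lower in ROS+++ than in ROS+ and 10 higher. Over all genes 23% were lower and 28.9% higher under this scaling. It makes the set's summed level equal in all libraries, so it shows only shifts between its genes. Srsf12, Snrpn, Hnrnpa1, Snrpd1, Snrpa1, Srsf10, Snrpe, Hnrnph3 and Hnrnpc stayed lower, with differences of -4.82 to -0.35. Snrpb, Srsf2, Srsf5, Hnrnpf, Hnrnpm, Hnrnpl, Hnrnpa3, Hnrnpul1, Hnrnpu and Sf3b5 were higher, by 0.40 to 1.08.

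Splicing genes outside the set were followed in 7 lists. Neural and tissue-biased splicing regulators came first by size of change. Of 25 in the table, 14 were lower and 4 higher in ROS++ than in ROS+ with library totals (13.2% and 16.4% of all genes). In ROS+++ against ROS+ 20 were lower and 3 higher (40.0% and 19.2%), and against ROS++ 15 and 3 (29.2% and 9.89%). With relative log expression factors 14, 19 and 14 were lower in the same order (12.3%, 25.9% and 17.1%). Under these factors 4, 4 and 5 were higher (16.5%, 26.5% and 18.7%). Their median log2 change in ROS+++ against ROS+ was -2.80, against -0.44 over all genes. Srrm4, a neural activator of microexons, averaged 86.3 ± 15.1 CPM for ROS+, 14.3 ± 4.65 CPM for ROS++ and 0.579 ± 0.387 CPM for ROS+++, and fell by 5.81 ± 0.30 in ROS+++ against ROS+ (limma adjusted p = 4.81e-11). Its exons overlap those of Srrm4os on the other strand. Elavl2, a neuronal RNA-binding protein, fell by 4.30 ± 0.35 in ROS+++ against ROS++ (1.30e-07). Rbms1, an RNA-binding protein of many tissues, rose by 1.47 ± 0.29 in ROS++ against ROS+ (0.000881), by 3.41 ± 0.31 in ROS+++ against ROS+ (4.55e-08) and by 1.94 ± 0.31 in ROS+++ against ROS++ (8.93e-05).

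The remaining core spliceosome proteins depended on the scaling too. Of 46, 27 were lower and 1 higher in ROS+++ than in ROS+ with library totals, but 3 lower and 6 higher with relative log expression factors (all genes 40.0% and 19.2%, then 25.9% and 26.5%). In ROS++ against ROS+ 8 were lower and 2 higher with library totals (13.2% and 16.4% of all genes). In ROS+++ against ROS++ 11 were lower and 2 higher (29.2% and 9.89%). Under relative log expression factors these counts were 7 and 2 (12.3% and 16.5%), and 1 and 7 (17.1% and 18.7%). The median change in ROS+++ against ROS++ was then 0.10 in place of -0.31. Ddx42, a helicase of the U2 particle, fell by 0.92 ± 0.15 in ROS++ against ROS+ (limma adjusted p = 0.000112). Eftud2, the GTPase of the U5 particle, was the 1 gene called higher in ROS+++ than in ROS+ with library totals. It averaged 117.5 ± 11.04 CPM for ROS+, 149 ± 14.99 CPM for ROS++ and 349.5 ± 42.9 CPM for ROS+++. The rise in ROS+++ against ROS+ was 1.56 ± 0.12 (5.62e-09). Exons of Eftud2 overlap those of Gm26668 on the other strand. The mural marker Higd1b lies 432 bases from Eftud2 and averaged 3.36 CPM for ROS+, 411 CPM for ROS++ and 1839 CPM for ROS+++, and its part in the Eftud2 counts was not tested.

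Genes that assemble, modify or work beside these proteins gave smaller counts. Of 11 genes of the SMN complex, which loads Sm rings, 5 were lower in ROS+++ against each other class with library totals. The shares over all genes were 40.0% against ROS+ and 29.2% against ROS++. Under relative log expression factors 3 and 2 were lower (25.9% and 17.1%), with 1 higher against ROS+ (26.5%). Prmt5, which methylates Sm proteins, fell by 1.06 ± 0.13 in ROS+++ against ROS+ (limma adjusted p = 1.93e-06). In the U6 LSm ring 1 of 7 was higher in ROS++ than in ROS+ (16.4% of all genes). With library totals 3 and 5 were lower in ROS+++ than in ROS+ and in ROS++ (40.0% and 29.2%). Under relative log expression factors 1 and 1 were lower (25.9% and 17.1%). The median change in ROS+++ against ROS+ was -0.27 and 0.17 under these scalings. Of 24 SR-related proteins and SR kinases, 14 were lower and 4 higher in ROS+++ than in ROS+ (all genes 40.0% and 19.2%). With relative log expression factors 8 were lower and 7 higher (25.9% and 26.5%). Srpk1, a general SR protein kinase, fell by 1.56 ± 0.13 (2.15e-08), and Srpk3, the muscle-biased kinase of the family, rose by 2.19 ± 0.33 (2.12e-05) alongside the mural markers, whose part was not tested. Clk1, a nuclear SR protein kinase, rose by 0.37 ± 0.08 in ROS+++ against ROS++ (0.000745).

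Of 16 hnRNP-like proteins with other symbols, 8 were lower and 1 higher in ROS+++ than in ROS+ with library totals (40.0% and 19.2% of all genes), and 5 and 2 with relative log expression factors (25.9% and 26.5%). Nono, a paraspeckle protein, fell by 1.47 ± 0.12 (limma adjusted p = 9.04e-09). Of 6 exon junction complex genes, 3 were lower in ROS+++ than in ROS+ with library totals (40.0% of all genes). Under relative log expression factors 1 was lower and 1 higher (25.9% and 26.5%). Of 5 nuclear-retained RNAs, 2 were higher and 1 lower in ROS+++ than in ROS+ with either scaling. All genes gave 19.2% higher and 40.0% lower, then 26.5% and 25.9%. Malat1, a nuclear long noncoding RNA kept in speckles together with SR proteins, averaged 11846 ± 1217 CPM for ROS+, 13844 ± 1584 CPM for ROS++ and 22474 ± 3770.4 CPM for ROS+++, and rose by 0.92 ± 0.10 in ROS+++ against ROS+ (6.36e-07). Neat1, the scaffold RNA of paraspeckles, rose by 3.11 ± 0.33 in ROS++ and by 3.81 ± 0.35 in ROS+++, each against ROS+ (2.18e-06 and 1.11e-07). The immediate early genes were also highest in ROS+++, and their part in these differences was not tested.

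In all, 12 of the 52 genes have exons that overlap those of another listed gene, and without strand the reads of such partners cannot be told apart. On the same strand these are Snrpn and Hnrnpm, and on the other strand Hnrnpab, Hnrnph3, Hnrnpk, Srsf2, Srsf4, Sf3a2, Sf3b3, Sf3b4, Snrpa and Snrpd3. The partner of Hnrnpab, Phykpl, averaged 20.8 CPM for ROS+, 28.6 CPM for ROS++ and 29.7 CPM for ROS+++, and that of Hnrnpk, Rmi1, averaged 9.86, 12.2 and 13.2 CPM.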

How the data were processed

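The deposited table holds log2 values of 15119 genes in 14 columns, one for each library, and no column of other samples (0). Per the submitters' processing notes, STAR, edgeR and build mm10 were used, and the step each served is not given in the sources used here. Per the labels' protocols, RNA was primed with poly-dT, template-switched, amplified over 12 cycles and fragmented, with neither strand nor molecular identifiers kept. As the values themselves show, the authors' log2 values are log2 CPM with a prior worth 1 read in an average library. With the prior taken off, each value was a whole number of reads within 0.001 reads. CPM was computed from these reads and library totals. No listed gene had under 82 reads in all, so a filter on low values may have preceded deposit.

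The design named a test for raw counts and another for log2 values. Since the values are log2, limma-trend with robust settings was used on log2(CPM + 1), with limma 3.58.1, statmod 1.5.0 and R 4.3.3. A gene was tested if 4 or more libraries had 1 CPM or more, which held for 15102 genes and not for 17. A single model covered the 3 classes with 11 residual degrees of freedom. P-values were Benjamini-Hochberg adjusted over all genes tested and called under 0.05, and each scaling was fitted to the whole table. Within-library ratios were tested by exact permutation. Symbols, coordinates and exon overlaps came from GENCODE M21, which may not be the authors' annotation. Between libraries of 1 class (26 pairs), chi-square over genes was 33.7 to 160.5 for each degree of freedom and Pearson's r was 0.873 to 0.967, so none is a repeated run. The code was tested on simulated data.

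The genes, lists and tests were chosen with earlier results of these data known. Values in every library are given for the 3 genes with the largest positive and the 3 with the largest negative change per comparison among those called without overlap, for the gene with the highest mean CPM over all libraries in each role group, and for genes called against the majority direction. Srsf2 and Snrpb were added after their values were seen, as were other genes of the set described by their means. From the other lists, the gene with the smallest adjusted p in each direction was eligible, with Ptbp1, Ptbp2 and Malat1. Some results are not reported here. Alternatives were the other scalings, limma-voom, no filter, other pseudocounts, the deposited values, fits of the compared classes alone, a block of library sets, each library left out and, added after the data were seen, scaling to the set's own total.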

Additional observations from a re-analysis of the deposited data

Results flagged for a closer look

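Of 33 groups of library values checked, 1 held a library far from the others by Dixon's criterion, which chance meets in about 1 of 20 groups. Sf3b1 had 373.2 CPM in ROS+++ replicate 3, against 409.1 to 414.6 CPM in the other ROS+++ libraries, and this gap was 0.868 of the whole range. Without that library Sf3b1 differed by -0.57 between ROS+++ and ROS+ (limma adjusted p = 0.000135) and by 0.02 between ROS+++ and ROS++ (0.905).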

How the results depend on the processing

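For ROS++ against ROS+, where 14 genes were lower and 0 higher, 2 were higher by limma-voom and 2 in a fit of these classes alone, and 0 to 1 with a library left out (1 without ROS++ replicate 5), with 13 to 16 lower. Scaling to the set's own total gave 12 higher, 6 lower and a median change of 0.0335, against -0.22 with library totals. Over all genes this scaling gave 22.9% higher and 7.12% lower. It makes the set's summed level equal in all libraries, so it cannot show a change of the set as a whole.

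In ROS+++ against ROS+, where 35 were lower and 1 higher with a median of -0.63, TMM factors gave 18, 5 and -0.25, relative log expression factors 11, 6 and -0.19, upper-quartile factors 23, 5 and -0.34, and the set's total 9, 10 and -0.0779. With the set's total 23% of all genes were lower and 28.9% higher. With a library left out 32 to 35 were lower and 1 to 2 higher (2 without ROS+ replicate 2 or 5).

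Set against ROS++, 26 genes were lower in ROS+++ and 0 higher with a median of -0.41, and TMM factors gave 10, 5 and -0.11, relative log expression factors 8, 7 and -0.0284, upper-quartile factors 11, 5 and -0.16, and the set's total 11, 5 and -0.14. With the set's total 19.8% of all genes were lower and 15.3% higher. With a library left out 21 to 26 were lower. The difference of Sf3b1 changed sign, at -0.02 with library totals but 0.32 (limma adjusted p = 0.0246), 0.40 (0.00679), 0.26 (0.0469) and 0.28 (0.02) under these 4 scalings, and the alternatives as a whole spanned -0.06 to 0.40.

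Library numbers in the titles repeat the order of the classes, so sets of neighbouring numbers were tried as a replicate block. Libraries of 1 set correlated at -0.0222 to 0.231 in their deviations from class means, against -0.15 to 0.161 across sets, and 12 of 13 pairs within sets were positive, against 20 of 52 across. Not every pair passed 0.1, but the signs differed within and across sets, so some sharing within sets is possible. The labels name no pairing, and the main fits and permutation tests did not pair the libraries. Their p-values take no account of such sharing. With the block 3 genes were higher in ROS+++ than in ROS+. With TMM factors and the replicate block 17 were lower and 5 higher there (median -0.26), and 9 lower and 5 higher in ROS+++ against ROS++ (median -0.12), where Sf3b1 differed by 0.34 (adjusted p = 0.0205). The F-test called 24 to 38 genes over 27 alternatives, and both ratios passed under all of theirs. The causes of these shifts were not tested. Depth limits low levels such as that of Srsf12 in ROS+++.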
